A study of Homo sapiens with 8 samples.

Results

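Caco-2 is a human colorectal cancer line that forms an enterocyte-like epithelium in culture, and both control lines made from it were set against each other here. The Empty line carries the pLX304 lentiviral vector, which confers blasticidin resistance, and was the control of ESRP1-overexpressing cells. The Scr line carries a scrambled short hairpin in the pLKO.1 vector, which confers puromycin resistance, and was the control of ESRP1-silenced cells. Neither had its ESRP1 changed, so a difference between them is not a response to ESRP1. RNA of adherent cells was hybridised to Illumina BeadChips with 2 arrays a group, Empty and ESRP1-overexpressing on one chip and Scr and ESRP1-silenced on the other. Line, vector, selection drug and chip therefore go together in every Empty against Scr value below and cannot be told apart. Of 47322 probes on the array, 16880 were compared, namely those detected (p under 0.01) on 2 or more of the 4 Empty and Scr arrays. They named 10275 genes, and 3383 of the probes carried no single gene symbol.

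Caco-2 cells keep a mixed fetal programme of the gut: they make brush border enzymes and tight junctions, and they also secrete plasma proteins and apolipoproteins that the adult liver makes. Lines kept apart in culture and selected with drugs are known to drift in expression and in chromosome content, and array chips processed apart are known to differ too. Signals are given as log2 normalised values, and every difference is Empty minus Scr on that scale, so 1 is a doubling of the signal. Calls are at an adjusted p under 0.05 from limma, over all tested probes.

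The Empty arrays had 15282 and 15627 probes detected at p under 0.01, against 16966 and 16978 on the Scr arrays, and the lowest detected signal lay at 7.05 and 6.95 on the Empty arrays, against 6.64 and 6.63 on the Scr arrays. ESRP1-overexpressing arrays, which share the chip, vector and drug of the Empty arrays, had 15153 and 15370 probes detected. Over the tested probes the 2 Empty arrays correlated at 0.985 and the 2 Scr arrays at 0.992. Empty arrays correlated with Scr arrays at 0.955 to 0.959 (4 pairs), below the pairs of different groups on one chip (0.971 to 0.973 and 0.984 to 0.988). The labels do not say that the 2 arrays of a line came from separate cultures, so the p-values measure the spread between arrays. An exact permutation test of 2 against 2 arrays cannot go below p = 0.333 and was not used.

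ESRP1, the epithelial splicing factor that the study altered, was not called between the controls. Its signal was 8.26 and 7.91 on the Empty arrays, against 8.03 and 8.32 on the Scr arrays, a log2 difference of -0.09 with a standard error of 0.18 (adjusted p = 0.719). The arrays of the lines interleaved. With each array scaled to its median the difference was -0.69 (adjusted p = 0.00798), a call, where the median of all tested probes was -0.59. It stood at 9.75 and 9.96 on the ESRP1-overexpressing arrays and at 6.37 and 6.16, not detected, on the ESRP1-silenced arrays.

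Although ESRP1 did not separate the controls, 5207 of 16880 probes (30.8%) were called, 2379 higher and 2828 lower in Empty. By comparison 35 probes were called between ESRP1-silenced and Scr cells on their shared chip, and 1559 between ESRP1-overexpressing and Empty cells on theirs. Most of the Empty against Scr differences were small: the median absolute log2 difference was 0.34, the 90th percentile 0.962 and the 99th percentile 1.84, with 1495 probes past 1 and 121 past 2. Counted by gene, with the brightest probe of each, 1350 genes (13.1%) were higher and 1778 (17.3%) lower in Empty. Without Scr replicate 1 or 2 the calls numbered 2571 and 2119, and without Empty replicate 1 or 2 they numbered 3421 and 3203. The shares of 13.1% and 17.3% are the background for every gene list below. The median over all tested probes was -0.02, but with each array scaled to its median in place of quantile normalization it moved to -0.59, and then 460 probes were called higher and 10039 lower. Directions below are those after quantile normalization, that is, relative to the bulk of the genes.

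Detection itself differed between the lines. There were 206 probes detected on both Empty arrays and on neither Scr array, against 1131 detected on both Scr arrays and on neither Empty array, while 14007 were detected on all 4. Of those seen in Empty alone 181 were called higher, and of those seen in Scr alone 660 were called lower. Of the 1131 probes seen in Scr but not in Empty, 856 were detected on both ESRP1-silenced arrays and 195 on both ESRP1-overexpressing arrays. Of the 206 seen in Empty but not in Scr, 67 were detected on both ESRP1-overexpressing arrays and 32 on both ESRP1-silenced arrays. The dimmest 3376 of the tested probes had a median log2 difference of -0.18 and 22% called lower, against medians between -0.01 and 0.01 in the 4 brighter sets of equal size. How far the higher detection floor of the Empty chip enters these counts was not tested.

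The genes with the largest falls in Empty came in 2 kinds: those that the ESRP1-overexpressing cells on the same chip expressed nearer to the Scr level or above it, and those that were low in both groups of that chip. PAMR1, a secreted peptidase-domain protein, led the first kind. Its signal was 5.08 and 5.02 on the Empty arrays, against 9.39 and 9.41 on the Scr arrays. It was not detected in Empty and was at least 5.28-fold lower there (adjusted p = 3.65e-05), while the ESRP1-overexpressing arrays read 9.56 and 9.68. LYZ, which encodes the antibacterial enzyme lysozyme of Paneth cells, read 8.54 and 8.53 on the Empty arrays, against 11.76 and 11.82 on the Scr arrays, a difference of -3.26 (standard error 0.19, adjusted p = 0.000359), and 12.54 and 12.52 on the ESRP1-overexpressing arrays. The brighter LYZ probe gave these values. The second LYZ probe, dimmer, went the other way with 0.91 (adjusted p = 0.00604), so LYZ rests on 1 of its 2 probes.

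TSPAN8, a tetraspanin of the gut epithelial surface, was the brightest of these genes in Scr and was low in Empty. It read 10.49 and 10.44 on the Empty arrays, against 13.44 and 13.41 on the Scr arrays (difference -2.96, standard error 0.12, adjusted p = 0.000139). Its ESRP1-overexpressing arrays, at 14.56 and 14.34, lay above both controls. MX1, an interferon-induced antiviral GTPase, read 6.02 and 6.33 on the Empty arrays, against 9.18 and 9.30 on the Scr arrays, and was at least 4.73-fold lower in Empty, where it was not detected (adjusted p = 0.000316). UCA1, a long non-coding RNA first described in bladder cancer, had 7.32 and 7.27 on the Empty arrays, against 10.50 and 10.24 on the Scr arrays, with no overlap and a difference of -3.08 (adjusted p = 0.000139). HKDC1, a hexokinase-like enzyme, read 6.57 and 6.81 on the Empty arrays, against 9.63 and 9.55 on the Scr arrays and was at least 6.03-fold lower in Empty (adjusted p = 0.000784). In all of these genes both Empty arrays lay below both Scr arrays, and the 2 arrays of a line differed by far less than the lines did.

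More genes of metabolism and of the gut surface fell in the same way. OCIAD2, a mitochondrial protein, was at least 5.21-fold lower in Empty (adjusted p = 0.000359) and its second probe fell too (-2.51). PPP1R14A, an inhibitor of myosin phosphatase, was at least 6.12-fold lower, SULF2, which trims heparan sulphate, at least 4.35-fold lower with all of its 3 probes called, and SRPX, a secreted sushi-domain protein, at least 4.33-fold lower. HSD17B2, which inactivates oestradiol and testosterone, was at least 3.62-fold lower, and PCSK1N, an inhibitor of a prohormone convertase, at least 3.51-fold lower. MTTP, which loads lipid onto apolipoprotein B, read 5.41 and 5.17 on the Empty arrays, against 7.81 and 7.75 on the Scr arrays, at least 1.72-fold lower in Empty (adjusted p = 0.000305). On the ESRP1-overexpressing arrays MTTP reached 9.25 and 9.43. GSTA1, a glutathione transferase, had 3 probes: the brightest was not called, at 0.46 (adjusted p = 0.112), and the other two fell by 2.13 and 1.83 on the log2 scale. CRABP2, which carries retinoic acid, fell by 1.93 on the log2 scale (adjusted p = 0.000477).

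The second kind was low in Empty and in ESRP1-overexpressing cells and high in both groups of the Scr chip. XAGE3, a cancer-testis antigen, read 5.78 and 5.26 on the Empty arrays, against 9.13 and 9.08 on the Scr arrays, with 5.06 and 5.34 in ESRP1-overexpressing and 9.72 and 9.39 in ESRP1-silenced cells. It was detected on no array of the Empty chip and was at least 4.3-fold lower in Empty than in Scr (adjusted p = 0.000359). PAGE4, of a related antigen family, read 8.10 and 7.99 on the Empty arrays, against 10.40 and 10.33 on the Scr arrays (difference -2.32, adjusted p = 0.000718) and was lower still, at 6.31 and 5.95 and not detected, on the ESRP1-overexpressing arrays. EDN3, an endothelin peptide, shared that order, with 7.54 and 7.57 on the Empty arrays, against 9.36 and 9.47 on the Scr arrays (difference -1.86, adjusted p = 0.00117) and 6.55 and 6.85 on the ESRP1-overexpressing arrays. TF, which encodes the iron carrier transferrin, was at least 2.53-fold lower in Empty (adjusted p = 0.00165), not detected on either group of that chip. MILIP, a long non-coding RNA, fell by 2.09 on the log2 scale and SULT2A1, a steroid sulphotransferase, by 1.90 (adjusted p = 0.00184 and 0.00135), and both lay nearer to Empty than to Scr on the ESRP1-overexpressing arrays. KRT18, a keratin of simple epithelia, and CLEC2D, a C-type lectin, belong here by 1 probe each. The brighter KRT18 probe had a difference of -2.31 (adjusted p = 0.000477), and the other -0.41 (adjusted p = 0.132). The dimmer CLEC2D probe had -2.59 and the brighter 0.09 (adjusted p = 0.616).

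**Figure D1:**
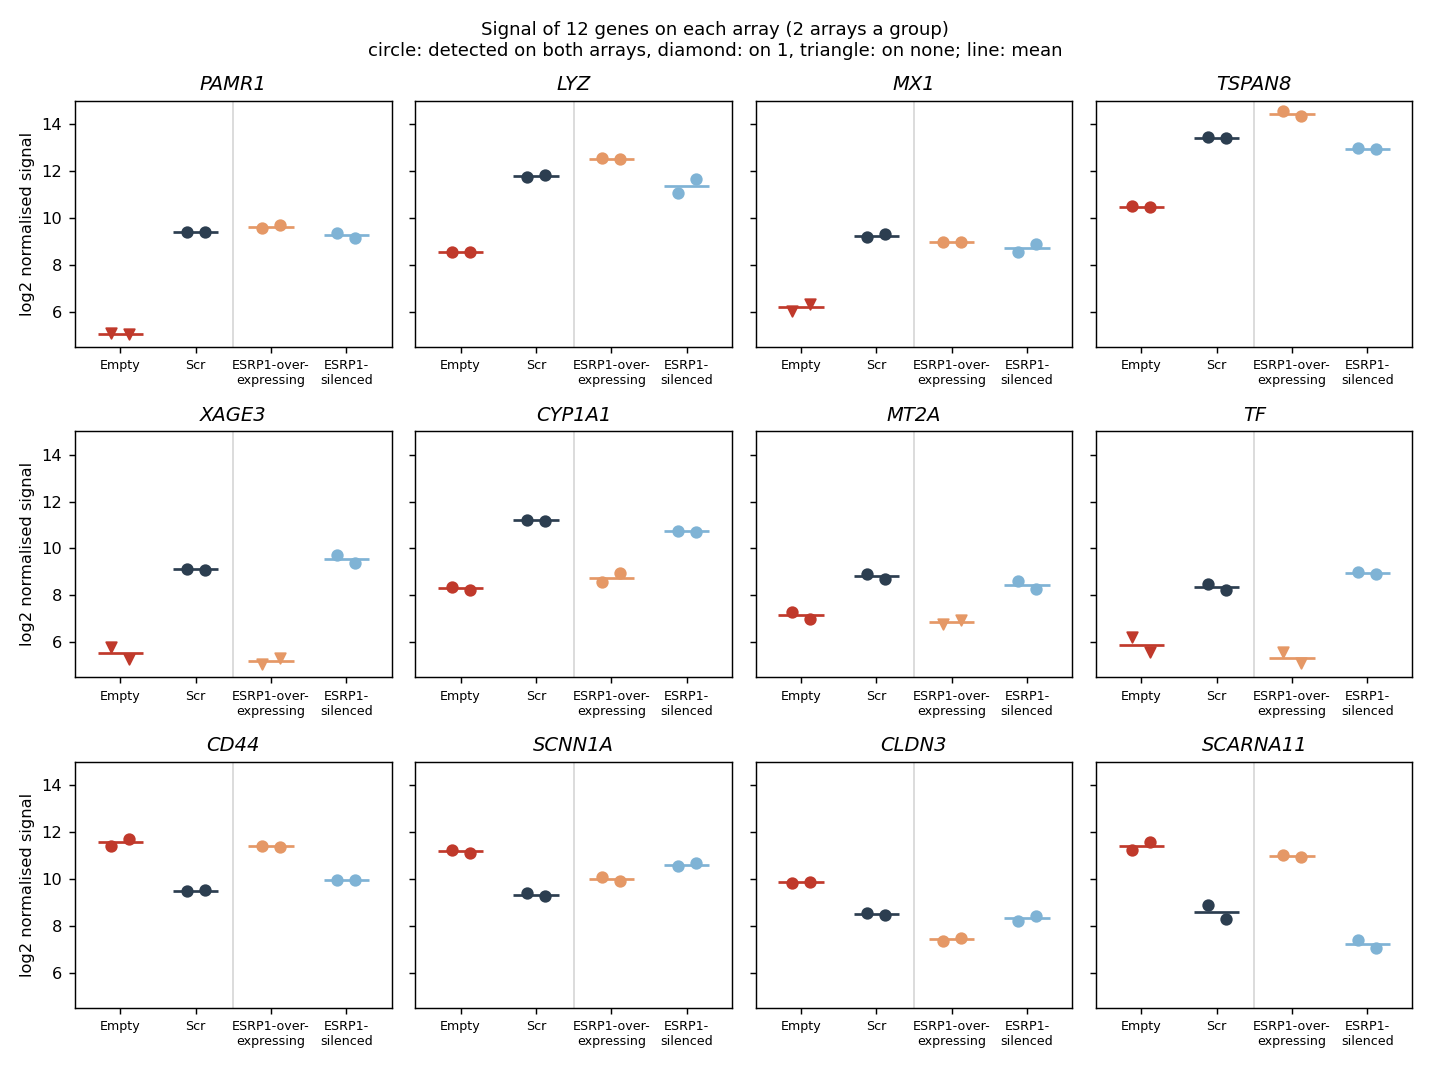
Log2 normalised signal of 12 named genes on each of the 8 arrays, with Empty left of Scr and ESRP1-overexpressing left of ESRP1-silenced. Points are arrays, lines are group means, with triangles for groups with no detected array and diamonds for groups with 1. PAMR1, LYZ, MX1 and TSPAN8 are low on the Empty arrays alone among the 4 groups plotted, whereas XAGE3, CYP1A1, MT2A and TF are low on both groups of the Empty chip.

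Xenobiotic and metal-handling genes were part of this second kind. CYP1A1, the classical target of the aryl hydrocarbon receptor, read 8.37 and 8.21 on the Empty arrays, against 11.21 and 11.18 on the Scr arrays (difference -2.90, standard error 0.15, adjusted p = 0.000305). CYP1B1, another target of that receptor, read 5.41 and 5.88 on the Empty arrays, against 7.54 and 8.07 on the Scr arrays and was at least 1.75-fold lower in Empty, where it was not detected (adjusted p = 0.00199). Other known targets of the receptor did not fall: UGT1A6 rose by 0.60 (adjusted p = 0.00707), ALDH3A1, an aldehyde dehydrogenase, rose by 0.49 (adjusted p = 0.0164), and NQO1, a quinone reductase, had -0.04 (adjusted p = 0.891). MT2A, a metallothionein that binds zinc and copper, read 7.29 and 7.0 on the Empty arrays, against 8.92 and 8.69 on the Scr arrays (difference -1.66, adjusted p = 0.00182), and MT1X read 8.54 and 8.75 on the Empty arrays, against 10.04 and 9.67 on the Scr arrays (difference -1.21, adjusted p = 0.0121). Of the 6 measured genes of the metallothionein list 3 fell and 0 rose, with a median of -0.69 against -0.04 over all genes. MT1F was the third, at -0.63 (adjusted p = 0.0406), and it lost its call with only the 4 Empty and Scr arrays (adjusted p = 0.0682), with the replicate block (0.0525), with either wider filter on detection (0.0559 and 0.112) and without Scr replicate 1 (0.186) or 2 (0.0683), Empty replicate 1 (0.163) or either ESRP1-silenced array (0.0629). MT1X lost its call without Scr replicate 1 (adjusted p = 0.0707). MT1E, at -0.75 (adjusted p = 0.115), the zinc-sensing factor MTF1, at -0.47 (adjusted p = 0.0671), and the zinc exporter SLC30A1, at -0.21 (adjusted p = 0.267), were not called. Metallothionein probes can share sequence among the gene copies, so their single values are uncertain.

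The promoters of MT2A, MT1X and CYP1A1 are shown because these metal-binding and xenobiotic-metabolising genes were called lower in Empty. They are the 250 bases before the start that RefSeq gives for each gene (build GRCh38.p14), in the direction of transcription. In MT2A (chr16:56608334-56608583, plus strand) and MT1X (chr16:56682220-56682469, plus strand), capitals mark TGCNCNC, the core of the metal response element, on either strand. In CYP1A1 (chr15:74725529-74725778, minus strand), capitals mark GCGTG, the core of the element bound by the aryl hydrocarbon receptor, on either strand.
MT2A: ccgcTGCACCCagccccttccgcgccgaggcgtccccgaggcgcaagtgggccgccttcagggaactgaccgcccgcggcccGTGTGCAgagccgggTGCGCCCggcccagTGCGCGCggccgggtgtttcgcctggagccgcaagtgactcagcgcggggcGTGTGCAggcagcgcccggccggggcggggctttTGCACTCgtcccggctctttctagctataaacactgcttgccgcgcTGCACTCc
MT1X: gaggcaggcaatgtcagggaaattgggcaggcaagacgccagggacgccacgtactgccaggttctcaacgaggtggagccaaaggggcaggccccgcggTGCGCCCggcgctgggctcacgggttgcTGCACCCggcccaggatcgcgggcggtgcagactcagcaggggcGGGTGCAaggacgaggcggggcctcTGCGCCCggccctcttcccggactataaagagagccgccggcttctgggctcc
CYP1A1: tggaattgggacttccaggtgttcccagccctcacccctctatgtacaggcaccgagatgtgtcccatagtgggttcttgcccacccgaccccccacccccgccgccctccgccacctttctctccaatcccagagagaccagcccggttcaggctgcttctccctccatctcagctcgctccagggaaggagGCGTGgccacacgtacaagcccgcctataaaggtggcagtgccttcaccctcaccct

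MT2A held TGCNCNC 7 times and MT1X 4 times. At least 1 match stood in 49.1% of 35116 promoter windows of this length, and 4 or more in 1.77%. CYP1A1 held GCGTG 1 time in this window, and 32.2% of the windows held it. A match describes the letters and is not a measurement of binding. No other motif was searched.

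Among the genes that rose in Empty, small non-coding RNAs of the nucleolus and the Cajal body filled the leading places: all 12 of the largest rises among genes detected on all 4 arrays were of this class. Most RNAs of this class guide the chemical modification of ribosomal and spliceosomal RNA, and many lie in introns of other genes. SCARNA11 read 11.23 and 11.57 on the Empty arrays, against 8.90 and 8.27 on the Scr arrays (difference 2.81, standard error 0.23, adjusted p = 0.00102). SCARNA23 read 9.89 and 10.32 on the Empty arrays, against 7.87 and 6.87 on the Scr arrays (difference 2.74, standard error 0.35), and its 2 Scr arrays lay further apart than the 2 Empty arrays. SNORA23 had 10.06 and 10.35 on the Empty arrays, against 7.79 and 7.21 on the Scr arrays (difference 2.70, adjusted p = 0.000736). The other 9, SNORA80E, SCARNA18, SNORA38B, SNORA28, SNORD3C, SCARNA14, SCARNA8, SNORA13 and SNORA63, rose by between 2.12 and 2.43. In each of the 12 both Empty arrays lay above both Scr arrays.

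The class as a whole was then counted through every measured gene whose symbol begins with SNORA, SNORD or SCARNA, a choice made after the values were seen. Of 143 such genes 72 rose and 3 fell, with a median of 0.64 against -0.04 over all genes. Of 15 SCARNA genes 14 rose (median 1.75), of 69 SNORA genes 41 rose and 0 fell (median 0.89), and of 59 SNORD genes 17 rose and 3 fell (median 0.37). Those that fell, SNORD14B, SNORD91A and SNORD139, were not detected in Empty. The median signal of the class was 8.61 and 8.75 on the Empty arrays, against 7.99 and 7.75 on the Scr arrays. It was 8.68 and 8.66 on the ESRP1-overexpressing arrays and 7.90 and 7.74 on the ESRP1-silenced arrays. The class thus differed in the same direction in both pairs of lines, which differ alike in chip, vector and drug. Other structured RNAs moved the same way: RMRP, the RNA of the mitochondrial RNA processing ribonuclease, was at least 3.12-fold higher in Empty (adjusted p = 0.00143), and the vault RNA VTRNA1-1 at least 3.42-fold. In the shorter list of small RNAs, 28 of 51 measured genes rose and 1, the host transcript SNHG7, fell.

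**Figure D2:**
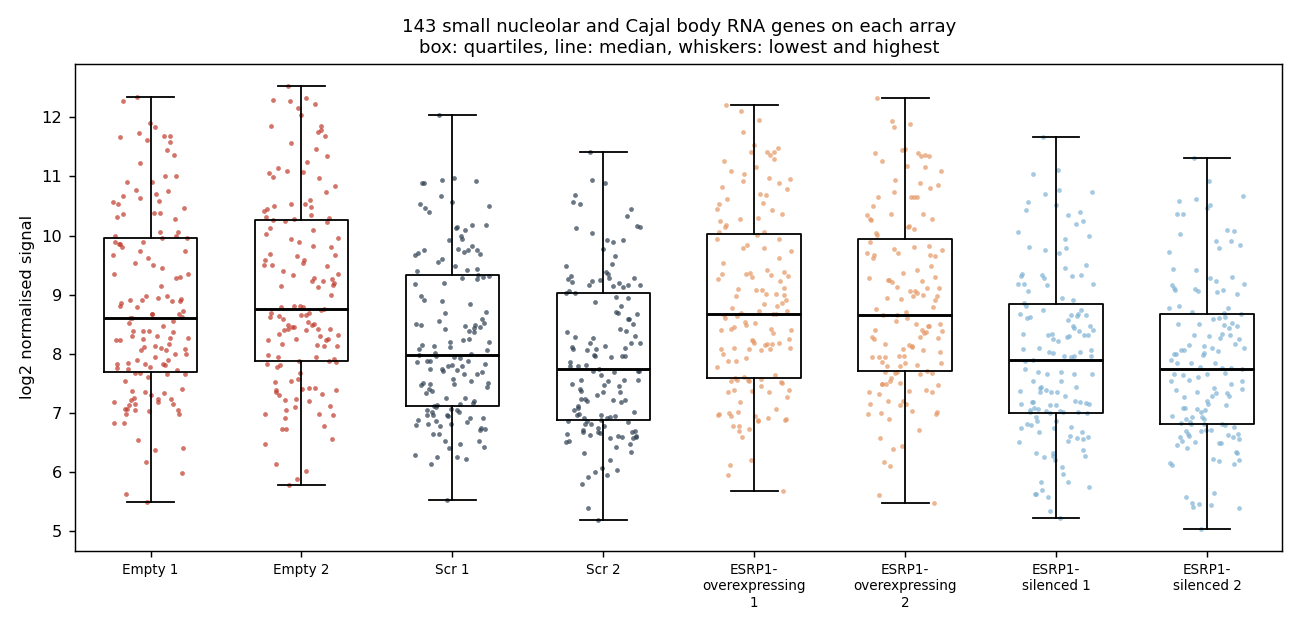
Log2 normalised signal of 143 small nucleolar and Cajal body RNA genes on each of the 8 arrays, Empty left of Scr. Points are genes and boxes give the quartiles and median, which lie at 8.61 and 8.75 on the Empty arrays, against 7.99 and 7.75 on the Scr arrays. The medians are higher on all 4 arrays of the Empty chip than on all 4 of the Scr chip.

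Some of the strongest signals seen in Empty but not in Scr came from protein-coding genes with 1 tested probe each. PPID, a cyclophilin, read 9.58 and 9.96 on the Empty arrays, against 6.30 and 6.50 on the Scr arrays and was at least 8.77-fold higher in Empty (adjusted p = 0.00143). KLLN, which encodes a small nuclear protein, was at least 7.61-fold higher, and PRIM2, a subunit of the DNA primase, at least 4.68-fold higher. For AFMID, an enzyme of tryptophan breakdown, and PPFIBP1, a liprin, the rise was confined to 1 of the tested probes. The AFMID probe that rose was at least 7.64-fold higher, and the other AFMID probe had -0.62 (adjusted p = 0.107). The PPFIBP1 probe that rose was at least 3.69-fold higher, and its 2 brighter probes had -0.34 and -0.05. SNHG10, SCARNA4 and SNORA30, all small RNAs or their host, complete this group with rises of at least 4.36-fold, 3.9-fold and 3.18-fold, the SNORA30 call being lost without Scr replicate 2 (adjusted p = 0.0627). For PPID, KLLN, AFMID and PRIM2 the ESRP1-overexpressing arrays were also higher than the ESRP1-silenced arrays, by 2.32, 2.38, 1.99 and 2.45.

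Secreted products of goblet and Paneth cells were higher in Empty as a list: of 14 measured genes 11 rose and 2 fell, against 13.1% and 17.3% of all genes, with a median of 1.04. Of those that rose, PLA2G2A and ZG16 were detected in Empty alone and passed the filter only through it. CHGB, not called, was detected in Scr alone. All trefoil factors, the peptides that protect the mucosa together with mucin, were among those that rose. TFF3 read 12.86 and 12.86 on the Empty arrays, against 11.69 and 11.64 on the Scr arrays (difference 1.20, adjusted p = 0.00277), TFF1 had a difference of 1.09 and TFF2 of 0.96. UTS2, a vasoactive peptide, read 9.08 and 9.20 on the Empty arrays, against 7.41 and 7.47 on the Scr arrays (difference 1.70, adjusted p = 0.00126). It read 9.10 and 8.80 on the ESRP1-silenced arrays, so Scr alone of the groups was low. AGR3, a protein disulphide isomerase of secretory cells (1.5), MUC1, a membrane mucin (1.29), and SPINK1, a trypsin inhibitor, rose too. PLA2G2A, an antibacterial phospholipase, was at least 1.65-fold higher in Empty (adjusted p = 0.0206), and not called without Scr replicate 2 (adjusted p = 0.108) or Empty replicate 1 (0.0753). The 2 that fell were LYZ and MUC13, a membrane mucin of the gut (-1.36, adjusted p = 0.00139). MUC13 read 7.88 and 7.94 on the ESRP1-silenced arrays, so Scr alone of the groups was high.

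Plasma proteins of the hepatic list fell more often than they rose, with 14 of 30 lower and 4 higher and a median of -0.29. Of those that fell, TF, SERPINA5, F2, HPX and CFI were detected in Scr alone. They passed the filter only through the line where they were high, so they could count only as falls. Besides TF, the fall included SERPINA5, an inhibitor of activated protein C (at least 1.04-fold lower, adjusted p = 0.000446), the fetal albumin AFP (-1.47), the antithrombin gene SERPINC1 (-1.32), ALB itself (-0.73) and the fibrinogen chains FGG and FGA (-0.67 and -0.58). CFB, complement factor B, rose: it read 10.01 and 9.59 on the Empty arrays, against 7.99 and 8.16 on the Scr arrays (difference 1.72, standard error 0.16, adjusted p = 0.00156). The coagulation factor genes F7 (1.51) and F10 (0.72) and the hyaluronan-binding ITIH1 (0.86) rose with it. In the lipid list the counts were 4 higher and 5 lower of 22. Its largest called differences were MTTP, the apolipoprotein gene APOA4 (at least 1.93-fold lower, adjusted p = 0.0374) and the cholesterol exporter ABCA1 (1.10). APOA4 lost its call with only the 4 Empty and Scr arrays (adjusted p = 0.0685), with either wider filter on detection (0.0506 and 0.0835) and without Scr replicate 1 (0.0754) or 2 (0.185), Empty replicate 1 (0.125) or either ESRP1-silenced array (0.0621), and its log2 difference ran between -2.07 and -1.02.

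**Figure D3:**
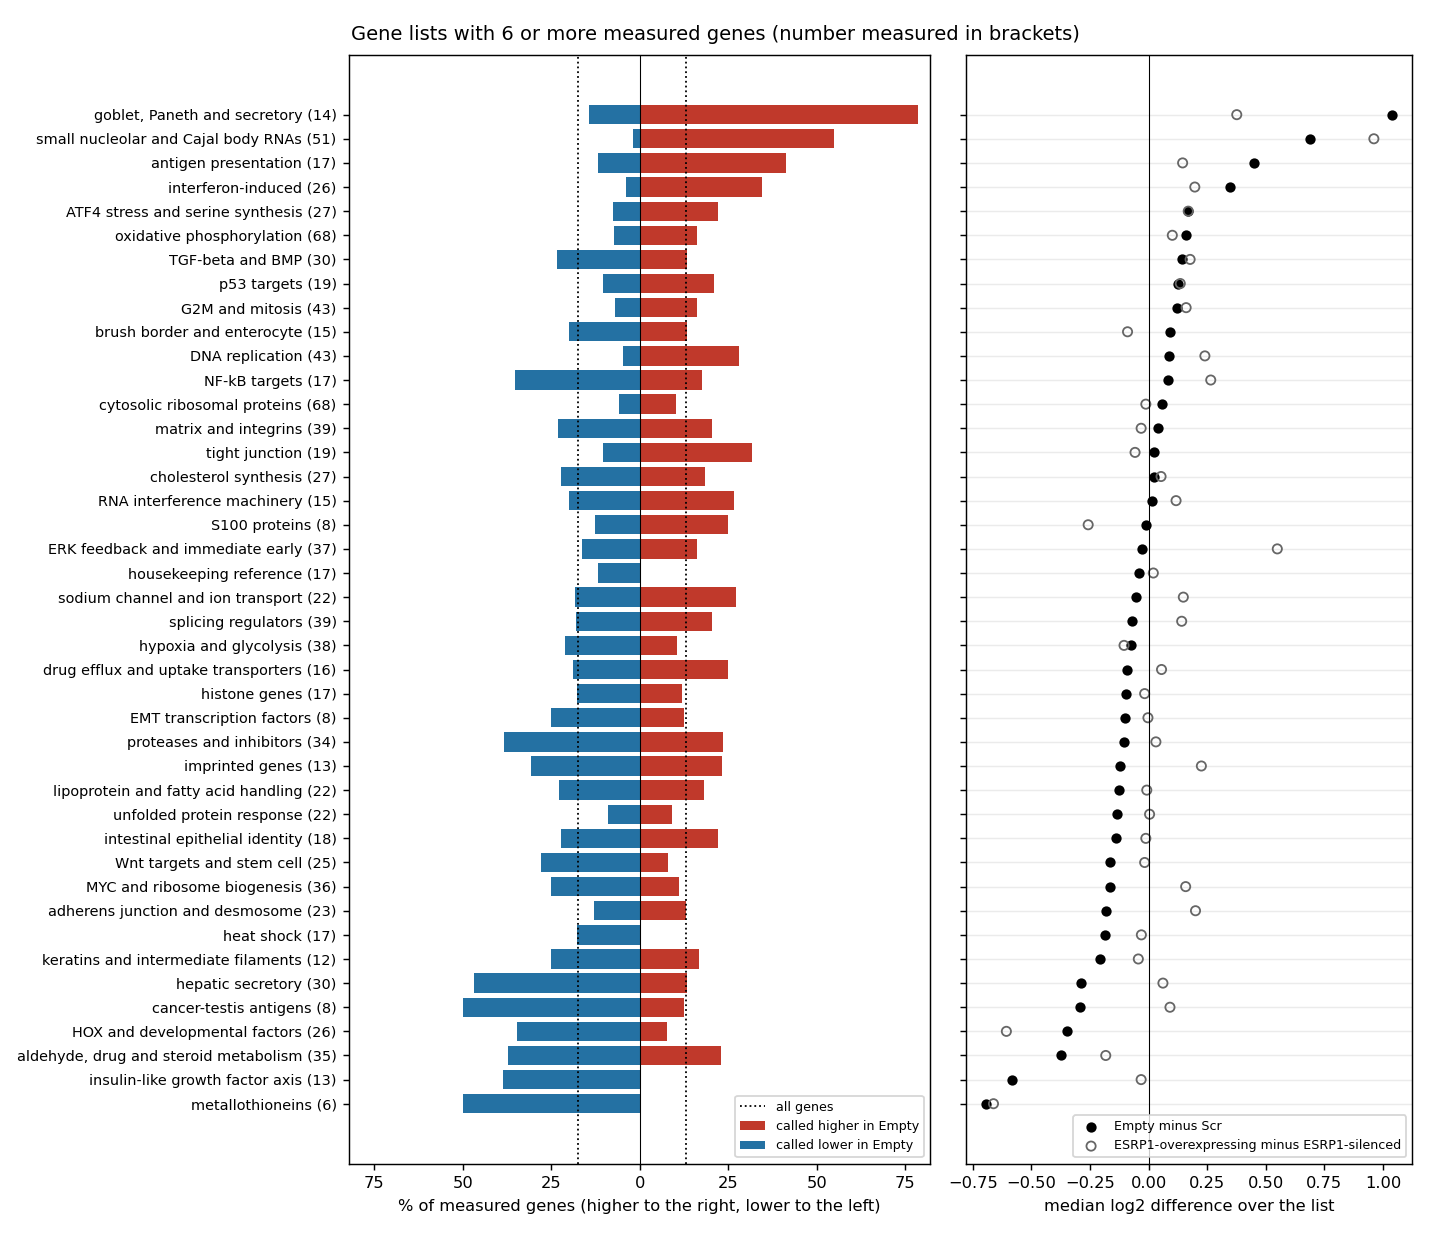
Gene lists with 6 or more measured genes. Left, the share of measured genes called higher (right side, red) and lower (left side, blue) in Empty than in Scr, with dotted lines at the shares of all genes, 13.1% and 17.3%. Right, the median log2 difference over each list for Empty minus Scr (filled) and for ESRP1-overexpressing minus ESRP1-silenced (open). The goblet, Paneth and secretory list has the highest median, 1.04, and the metallothioneins the lowest, -0.69. With median scaling of the arrays the medians fall with the bulk of the probes and 15 of 46 change sign.

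MX1 stood apart from the rest of the interferon-induced list. Of 26 measured genes 9 rose and 1, MX1, fell, with a median of 0.35. PLSCR1, a scramblase induced by interferon, read 9.17 and 9.11 on the Empty arrays, against 7.88 and 8.10 on the Scr arrays (difference 1.15, adjusted p = 0.0074). LGALS3BP, a secreted glycoprotein, read 8.36 and 8.30 on the Empty arrays, against 7.30 and 6.75 on the Scr arrays (difference 1.31, adjusted p = 0.00381). HERC6 (1.14), BST2, which tethers virus particles (1.12), and XAF1 (1.01) also rose, whereas ISG15, the ubiquitin-like modifier, had 0.14 (adjusted p = 0.396). The antigen presentation list had 7 of 17 higher and 2 lower (median 0.45). ERAP1, an aminopeptidase that trims peptides for presentation, was at least 1.91-fold higher in Empty (adjusted p = 0.00856, and 0.0571 without Scr replicate 2), while its relative ERAP2 fell by 1.64 on the log2 scale (adjusted p = 0.00324) on its brighter probe, the other giving 0.09. TAP2, a subunit of the peptide transporter, was at least 1.39-fold lower, and its partner TAP1 was higher by 0.45 (adjusted p = 0.0355). Under median scaling the medians of both lists lay below 0 (-0.28 and -0.06) but above the bulk of the probes at -0.59.

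In drug and steroid metabolism 13 of 35 measured genes fell and 8 rose (median -0.38). Besides CYP1A1, CYP1B1, HSD17B2 and SULT2A1, the aldo-keto reductases AKR1C3 (-1.34) and AKR1C4 (-1.07) and the retinal dehydrogenase ALDH1A1 (-1.33) fell. Those that rose had differences of at most 0.60, the value of UGT1A6, a glucuronosyltransferase. Among transporters 4 rose and 3 fell of 16, led by SLCO2A1, the prostaglandin carrier, at least 1.14-fold lower in Empty (adjusted p = 0.00146).

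Junction and ion transport genes changed in both directions. CLDN2, the claudin that forms cation pores, read 5.55 and 5.83 on the Empty arrays, against 8.43 and 8.36 on the Scr arrays, at least 2.63-fold lower in Empty (adjusted p = 0.000809). CLDN3, a sealing claudin, read 9.84 and 9.87 on the Empty arrays, against 8.56 and 8.47 on the Scr arrays, with a difference of 1.34 (adjusted p = 0.0013). Of the 19 measured genes of the tight junction list 6 rose and 2 fell (median 0.02). SCNN1A, an ENaC sodium channel subunit, rose in Empty with 11.25 and 11.10 on the Empty arrays, against 9.39 and 9.26 on the Scr arrays (difference 1.85, standard error 0.13, adjusted p = 0.00058). SLC26A3, the chloride and bicarbonate exchanger of the colon, was at least 1.26-fold lower, and CA2, a carbonic anhydrase, fell by 1.26 on the log2 scale, with its second probe called as well (-0.90). In the brush border list 2 of 15 rose and 3 fell, ENPEP, an aminopeptidase, among them (at least 1.4-fold lower).

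Matrix, protease and growth factor genes included further large differences. CD44, the hyaluronan receptor and a Wnt target, rose on both of its probes. The brighter read 11.43 and 11.70 on the Empty arrays, against 9.48 and 9.52 on the Scr arrays (difference 2.06, standard error 0.12, adjusted p = 0.000432) and the other had 1.74. MMP1, interstitial collagenase, read 9.41 and 9.66 on the Empty arrays, against 7.30 and 7.66 on the Scr arrays (difference 2.05, adjusted p = 0.00146). PLAU, the urokinase gene, was at least 2.87-fold lower in Empty, and SERPINE2, an inhibitor of it, fell by 1.78 on the log2 scale. Of 34 measured proteases and inhibitors 8 rose and 13 fell. LAMA1, a laminin chain, fell by 1.73 on the log2 scale on its brighter probe (adjusted p = 0.000718), with its second probe lower too (-2.17), and LUM, the collagen-binding lumican, by 2.03 (adjusted p = 0.00365, detected on 1 of 2 Empty arrays). In the insulin-like growth factor list 5 of 13 fell and 0 rose (median -0.58), with IGFBP4 (-1.41), the mRNA-binding IGF2BP3 (-1.34) and IGFBP6 (-1.07) leading. BMP7, a bone morphogenetic protein, rose, with 13.29 and 13.28 on the Empty arrays, against 11.91 and 12.09 on the Scr arrays (difference 1.28, adjusted p = 0.00228).

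Developmental transcription factors fell more often than they rose, 9 against 2 of 26 (median -0.35), while the replication list had 12 of 43 higher and 2 lower (median 0.09). TBX2, a T-box repressor, was at least 2.28-fold lower and PAX8 at least 1.33-fold lower in Empty, and SOX2, a stem cell factor, rose by 1.12 (adjusted p = 0.0044). MYCN, a MYC family factor, read 13.13 and 12.95 on the Empty arrays, against 11.92 and 11.78 on the Scr arrays (difference 1.19, adjusted p = 0.00184). CDC45, a helicase subunit (0.83), and E2F2, an S-phase transcription factor (0.98), rose. FOSB, an immediate early gene, was at least 2.09-fold higher in Empty (adjusted p = 0.000809). CDKN1C, an imprinted inhibitor of the cell cycle, read 7.06 and 5.19 on the Empty arrays, against 8.75 and 9.12 on the Scr arrays, a difference of -2.81 (standard error 0.53, adjusted p = 0.0101), not called without Scr replicate 2 (adjusted p = 0.0647), and its 2 Empty arrays differed widely, 1 of them without detection. In the RNA interference list, set here because Scr alone of the controls carried a hairpin, 4 of 15 rose and 3 fell (median 0.01), with AGO2, which cuts hairpin targets, higher by 1.13 in Empty (adjusted p = 0.00212) and TNRC6A lower on 1 of its 2 probes, a call lost without either Scr array (adjusted p = 0.0892 and 0.0722) or Empty replicate 2 (0.0658).

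Relative to the bulk of the genes after quantile normalization, several broad programmes differed little. With median scaling the median of all tested probes itself lay at -0.59. Of 17 reference genes 0 rose and 2 fell, HPRT1 (-0.45) and POLR2A (-0.40), and the 17 ranged between -0.45 and 0.39. Both calls were lost with only the 4 Empty and Scr arrays (adjusted p = 0.0596 and 0.0594), with no detection filter (0.107 and 0.143) and without each Empty or Scr array in turn (0.0528 to 0.125). Of 68 cytosolic ribosomal protein genes 7 rose and 4 fell (median 0.06), of 68 oxidative phosphorylation genes 11 rose and 5 fell (median 0.16), and of 43 mitotic genes 7 rose and 3 fell (median 0.12). The unfolded protein response list had 2 of 22 higher and 2 lower.

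Of the 10 markers of intestinal epithelium 7 were tested: CDH17, the liver-intestine cadherin, had -0.07, VIL1, villin, 0.32, CDX2, the intestinal homeobox factor, -0.40 and CDH1, E-cadherin, -0.29, none past the test, while EPCAM fell by 0.77 on the log2 scale (adjusted p = 0.0156) and KRT18, on its brighter probe, had a difference of -2.31 (adjusted p = 0.000477). KRT8, its keratin partner, had -0.31 (adjusted p = 0.067). All 7 were detected on all 4 arrays, and the summed linear signal of the marker list was 103131 to 117471 in Empty and 149052 to 154509 in Scr. Of the markers of other cell types, 3 of 12 fibroblast genes were detected on both Empty arrays and 5 on both Scr arrays, 1 and 2 of 10 endothelial genes, and 2 and 3 of 12 leukocyte genes. COL1A1 was detected on 1 Empty array. Summed linear signals of the leukocyte markers were 6245 to 6601 in Empty and 3812 to 4206 in Scr, and of the endothelial markers 642 to 747 in Empty and 798 to 831 in Scr. Those of the fibroblast markers were 44434 to 48434 in Empty and 65391 to 66977 in Scr. These sums are not on the normalised scale of the single values. Before normalization the median signal was 167.1 and 173.4 on the Empty arrays, against 217.7 and 192.6 on the Scr arrays. How far array brightness enters the sums was not tested. TAGLN was by far the brightest of the 5 tested fibroblast markers and was not called (-0.35, adjusted p = 0.0507). PDGFRA, the next, read 9.95 and 9.94 on the Empty arrays, against 10.57 and 10.74 on the Scr arrays, a call. The part of these marker lists in the differences was not tested.

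The brightest genes with a log2 difference past 1 were XPNPEP3, a mitochondrial aminopeptidase, APOE, SPINK1, KCNH6, a potassium channel, CDKN2AIPNL and the pseudogene ZNF876P. XPNPEP3 read 13.83 and 13.78 on the Empty arrays, against 15.27 and 15.36 on the Scr arrays (adjusted p = 0.00266). APOE, which carries lipid in plasma, read 13.83 and 13.65 on the Empty arrays, against 14.67 and 14.95 on the Scr arrays (adjusted p = 0.00463). SPINK1 was the one of the 6 that rose, with 14.54 and 14.60 on the Empty arrays, against 13.57 and 13.48 on the Scr arrays (adjusted p = 0.00184).

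The same chips were compared a second time through other arrays, the ESRP1-overexpressing and the ESRP1-silenced, which share no array with Empty against Scr but share its chips, vectors and drugs and add the change in ESRP1. There 4331 of 16880 probes (25.7%) were called. Of the probes called higher in Empty 83.8% also lay higher in ESRP1-overexpressing than in ESRP1-silenced cells, and of those called lower 82.1% also lay lower. Among probes not called between the controls 64.5% had the same sign in both. Called in the same direction were 934 of the 2379 that rose, which is 39.3% of them and 47.1% of the rises of the other pair, and 1222 of the 2828 that fell, 43.2% of them and 52.0% of the falls of the other pair. Across the tested probes the 2 differences correlated at r = 0.552, with probes not being independent replicates. The median of the called rises was 0.72 in Empty minus Scr and 0.39 in the other pair, and that of the called falls -0.77 and -0.43.

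In this comparison fitted log2 differences are given also where a group was not detected, and these are no bounds. The 2 differences themselves differed for 750 probes (4.44%), and these were 8.79% of the rises and 10.7% of the falls in Empty. Rises and falls were chosen by the Empty minus Scr value, which is part of this contrast. Their shares can therefore not be read against the 4.44%. MTTP had -2.49 between the controls and 2.37 between ESRP1-overexpressing and ESRP1-silenced cells (adjusted p of the difference = 0.000127). TSPAN8 (-2.96 against 1.49), PAMR1 (-4.35 against 0.37) and LYZ (-3.26 against 1.15) did likewise. SCNN1A (1.85 against -0.61), CLDN3 (1.34 against -0.90) and LGALS3BP (1.31 against -1.26) were higher in Empty than in Scr and lower in ESRP1-overexpressing than in ESRP1-silenced cells. CYP1A1 (-2.90 against -1.97), MT2A (-1.66 against -1.59), TF (-2.45 against -3.62) and XAGE3 (-3.59 against -4.36) had the same sign in both, with no call on the difference.

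**Figure D4:**
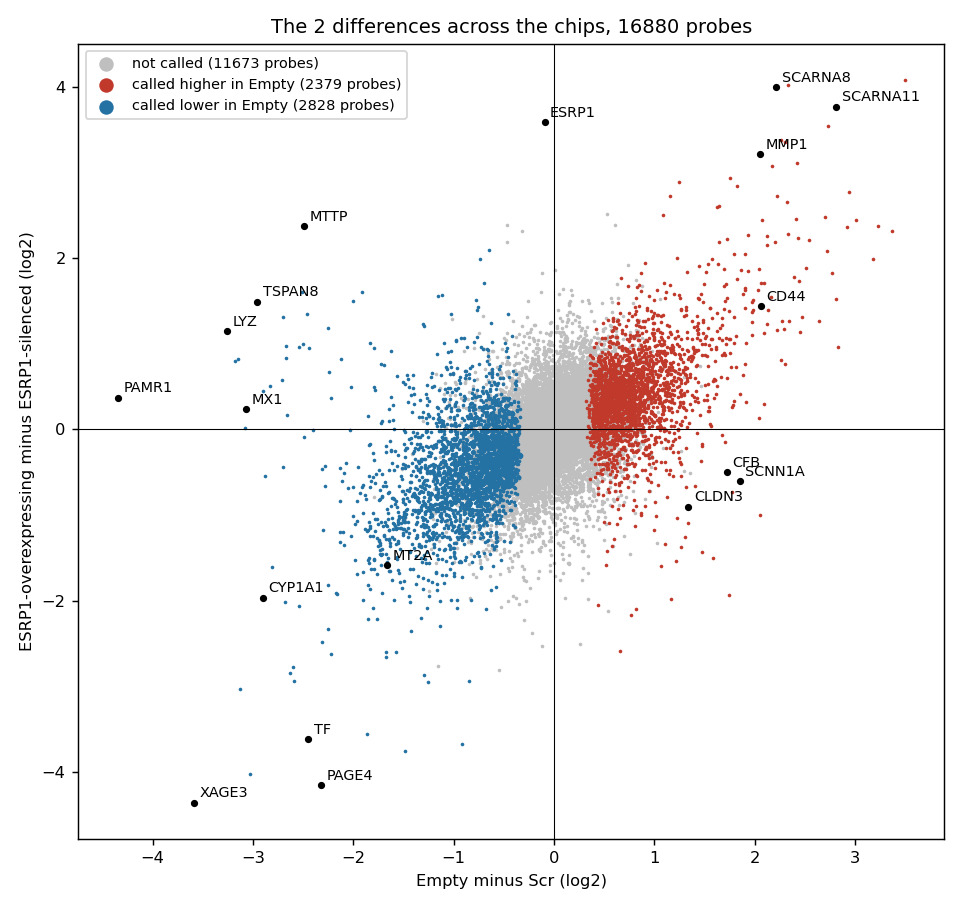
Log2 difference of Empty minus Scr (horizontal) and of ESRP1-overexpressing minus ESRP1-silenced (vertical) for 16880 probes. Red and blue points were called higher (2379) and lower (2828) in Empty, and black points are named genes. MTTP, TSPAN8, LYZ and PAMR1 lie at the left above 0, whereas XAGE3, TF and CYP1A1 lie at the lower left.

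Differences also followed the chromosomes, whose gene order was taken from RefSeq. On chromosome 4, with 348 measured genes, 28.2% of the genes were lower and 6.03% higher in Empty, with a median of -0.21 against -0.04 over all genes. Chromosomes 21 (median -0.19, 27.5% lower), 20 (-0.16, 26.5% lower) and 19 (-0.12, 24.7% lower) followed, and chromosome 5 had the highest median, 0.09, with 18.6% of its genes higher and 8.05% lower. In 256 windows of up to 40 neighbouring measured genes, a division chosen after the values were seen, the median lay below -0.25 in 14 and above 0.25 in 1. Chromosome 19 held 5 of the 14, chromosome 4 held 4 and chromosome 20 held 2. The lowest window, from ZNF876P to JAKMIP1 at one end of chromosome 4, had a median of -0.49 with 16 of 40 genes lower and 2 higher. All 9 windows of chromosome 4 had a median below 0. On chromosome 19 the windows past -0.25 lay between RPS19 and ZSCAN18, with medians of -0.29 to -0.38. The window above 0.25 ran from HBEGF to GRPEL2 on chromosome 5 (0.27).

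For chromosome 4 the other pair of lines had the opposite sign: the median of ESRP1-overexpressing minus ESRP1-silenced was 0.24, and 8 of its 9 windows lay above 0. On their shared chip ESRP1-overexpressing minus Empty, which holds the ESRP1 change too, had a median of 0.37 over that chromosome. ESRP1-silenced minus Scr had -0.06. The cause of these differences was not tested. Chromosomes 19, 20 and 21 lay below 0 in ESRP1-overexpressing minus ESRP1-silenced as well (medians -0.121, -0.155 and -0.095). Chromosome 5 lay above 0 there too (0.14). Over all 256 windows the medians of ESRP1-silenced minus Scr stayed between -0.20 and 0.14 and those of Empty minus Scr between -0.49 and 0.27. Those of ESRP1-overexpressing minus Empty ran between -0.42 and 0.50. Those of ESRP1-overexpressing minus ESRP1-silenced ran between -0.41 and 0.55. Genes named above that lie on chromosome 4 include OCIAD2, MTTP, ENPEP, AFP, ALB, FGG and FGA, all lower in Empty, and PPID, which was higher. The hepatic list and the chromosome counts therefore share genes. DNA was not measured here.

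**Figure D5:**
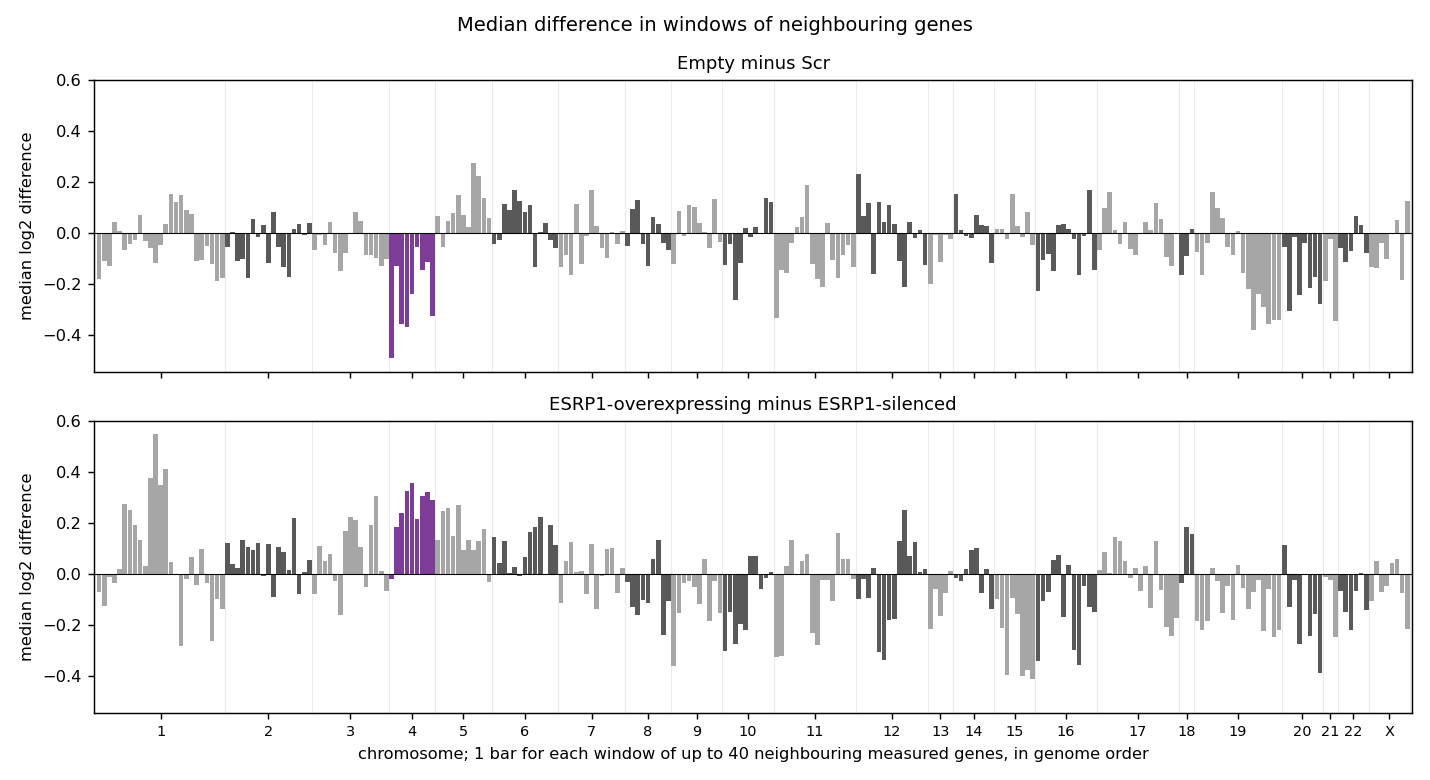
Median log2 difference in 256 windows of up to 40 neighbouring measured genes, in genome order, for Empty minus Scr (top) and ESRP1-overexpressing minus ESRP1-silenced (bottom). Chromosome 4 is purple and the others alternate in grey. All 9 windows of chromosome 4 are below 0 in the top panel, and 8 of 9 are above 0 in the bottom panel.

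Probes of one gene did not always move together. Of 2612 genes with 2 or more tested probes, 1324 had at least 1 called. In 379 genes 2 or more probes were called, in the same direction for 325 and in both directions for 54 (14.2%). For 2086 genes with exactly 2 tested probes the 2 differences correlated at r = 0.41 across genes. Named genes with a second called probe in the same direction included CD44, OCIAD2, SULF2, UTS2, CA2, EDN3, LAMA1, BAX, CCN2 and MYCN.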

How the data were processed

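Biotin-labelled RNA of 8 samples, 4 groups of 2, was hybridised to Illumina HT-12 BeadChips. The authors deposited a mean probe signal intensity, neither normalized nor background-subtracted, with a detection p-value per probe, and normalized intensities for which the sources used here name neither software nor method. Among the detection p-values 88 cells held a decimal comma and were treated as not detected. Background was corrected from the detection p-values and the 8 arrays were quantile normalized (limma 3.58.1, R 4.3.3, offset 16), log2 was taken, and 1 linear model of 4 groups was fitted with moderated tests and Benjamini-Hochberg adjustment over 16880 probes. The number of arrays limits the precision, and the spread is shared by all groups.

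Named were the 12 largest rises and 12 largest falls among genes detected on all 4 arrays, 10 in each direction among those detected in 1 line, up to 3 called genes from each of 45 gene lists, 6 bright genes and ESRP1. Other genes were chosen after their values were seen. Members and lists were chosen with earlier results of these data known. A list was counted over the brightest probe of each gene. List members detected in 1 line only passed the filter through that line, and so could count only in its direction. An "at least" fold is the bright line's mean over the lowest detected signal, or the dim probe's own where higher, on the dim line's arrays. In bulk RNA, fewer cells of a type and less RNA per cell cannot be told apart. Probes of near-identical genes (metallothioneins, keratin 18, glutathione transferases, small RNAs) can share signal. The statistical code was checked on simulated data. Alternatives covered background, normalization, detection filter, variance prior, replicate block, the methods' t-test and each array left out; the small RNA genes by symbol and the chromosome windows were added after seeing the data. Promoters, gene order and current symbols came from RefSeq (GRCh38.p14).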

Additional observations from a re-analysis of the deposited data

Results flagged for a closer look

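For 43 of the 165 named probes the difference between the controls (Empty minus Scr) differed from the difference between ESRP1-overexpressing and ESRP1-silenced cells in limma's contrast of the 2, with adjusted p between 0.000127 and 0.0388. Over all tested probes 750 of 16880 (4.44%) differed so. Named probes were mostly chosen by their Empty minus Scr value, which is part of this contrast. An excess of such probes among them was thus built in by the choice. The values that follow are the first difference (Empty minus Scr) minus the second, on the log2 scale. ESRP1, where the second difference holds the study's own change of the gene, had -3.68. In 32 other genes the value was below 0. MTTP had -4.86, PAMR1 -4.72, TSPAN8 -4.45, LYZ -4.40, PIWIL1 -4.02 and OCIAD2 -3.97. SULF2 had -3.81, HSD17B2 -3.64, SRPX -3.50, HKDC1 -3.36, MX1 -3.30 and UCA1 -3.09. GSTA1 had -2.95 on a dimmer probe, while its brightest probe had -0.38 (adjusted p = 0.464 in the same contrast). PCSK1N had -2.39, PPP1R14A -2.33, CLDN2 -2.27, SERPINE2 -2.25 and PDK3 -1.94. SCARNA8 had -1.78, TAP2 -1.71, PLAU -1.66, ENPEP -1.46, NES -1.43 and PCDH7 -1.37. FCER1G had -1.31, CRABP2 -1.19, CA2 -1.17, PHLDA1 -1.14, PDGFRA -1.13 and OVOL2 -1.10. H2AC6 had -0.99 and SERPINA5 -0.89. In 10 genes it was above 0. CD14 had 1.00, TFF3 1.16, MYCN 1.33, EDN3 1.70, PAGE4 1.84 and UTS2 1.84. CFB had 2.22, CLDN3 2.25, SCNN1A 2.46 and LGALS3BP 2.56. Which of the 4 groups sets each value cannot be read from the contrast alone, and the signals of the groups are plotted for the leading genes. With 2 arrays a group no array was tested as an outlier.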

How the results depend on the processing

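The 5207 calls between Empty and Scr became 10499 (460 higher, 10039 lower) with median scaling, 2901 (1268 higher, 1633 lower) with no detection filter, 977 with the methods' t-test at their thresholds and 1 after Benjamini-Hochberg. With 1 array left out they ranged between 2119 and 5129 (966 to 2387 higher, 1153 to 2742 lower). Calls between ESRP1-overexpressing and ESRP1-silenced cells were 9243 with median scaling, 2331 with no filter and 1834 to 4381 with 1 array left out. The 750 probes whose 2 differences differed became 1391 without background correction, 1294 on the deposited normalized values, 166 with no filter, 442 with detection at 0.05, 1671 with a trended prior and 135 to 477 with 1 array left out. The cause was not tested, except that fewer arrays or more probes entered some fits by construction.

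Replicate numbers did not pair the arrays: deviations of same-numbered arrays correlated between -0.014 and 0.063. With the replicate block 4870 probes were called between Empty and Scr and 486 in the difference of differences. Among named probes, CALR (-0.063) and S100A6 (-0.037) turned below 0 with median scaling, and ESRP1, not called, ranged between -0.267 and 0.082 with 1 array left out, above 0 without Scr replicate 2 (0.055) or Empty replicate 2 (0.082). With median scaling ESRP1 was called lower (-0.693). Of the 165 named probes, 22 lost their call with the sign kept under median scaling. CALR and S100A6, whose sign turned, lost theirs as well. Calls were lost by 22 with no filter, 7 with the 4 arrays alone, 4 with detection at 0.05 and 2 with the block. More named calls were lost when 1 Scr or Empty array was left out than with the 4 arrays alone. The genes that follow are only some of them. CDKN1C, ERAP1 and SNORA30 were lost without Scr replicate 2, PLA2G2A without Scr replicate 2 or Empty replicate 1 and with no filter, and TNRC6A without either Scr array or Empty replicate 2 and with no filter. Among the 5207 calls the sign was kept by 4406 with median scaling and by all those tested under the other alternatives fitted with limma (4112 with detection on all 4 arrays, 5207 otherwise). The slide could not be fitted as a block, since chip and line cannot be told apart. Probes near the detection floor, higher on the Empty chip, limit what the dim genes can show.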
